A study of Rattus norvegicus with 8 samples.

Results

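The 8 genes Kel, Xk, Rhd, Rhag, Gypc, Ermap, Icam4 and Aqp1, whose proteins carry blood group antigens on human red cells, were examined in whole blood of male Wistar rats. They were taken from a list of symbols that was chosen with earlier results of these data known. Every probe set that the platform annotation assigns to exactly 1 of these symbols was kept. In all, 6 of the 8 genes were found, with 8 probe sets, out of 14217 named genes. Kel and Aqp1 had 2 probe sets each, Xk, Rhd, Rhag and Gypc had 1 each, and Ermap and Icam4 had none and were not analysed here. The mulberry rats ate a high-fat diet with 1% mulberry leaf powder (4 arrays), and the high-fat rats ate that diet without it (4 arrays). All rats were Wistar males bought at 7 weeks of age, on their diet for 8 weeks, and bled after a night without food on day 56. The labels call the arrays biological replicates and name 10 rats for each diet, without saying whether an array holds 1 rat or a pool, so the spread between arrays may be partly technical. The study asks what eating mulberry leaf does to gene expression in blood.

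Blood group antigens are protein or sugar structures on the red cell surface that differ between people and can provoke antibodies after transfusion. Most of the proteins that carry them have ordinary work in the membrane as transporters, enzymes, adhesion molecules or anchors for the skeleton beneath it. Their transcripts are made in erythroid precursors and persist in reticulocytes, the young red cells that still hold RNA, so whole blood carries them. Kel encodes the Kell glycoprotein, a surface zinc endopeptidase that cleaves endothelin precursors and is joined by a disulphide bond to Xk, a membrane protein that works with the lipid transfer protein Vps13a. Rhd encodes the Rh polypeptide, of which rodents have a single gene, and Rhag encodes the Rh-associated glycoprotein, its partner and a channel for ammonia. Gypc encodes glycophorin C, which ties the membrane to the skeletal protein encoded by Epb41 and in human carries the Gerbich antigens. Aqp1 is the water channel that carries the human Colton antigens, and it is also made by kidney tubules and by endothelium outside the blood.

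The deposited values were read as log2 probe set summaries between 5.17 and 15.26. A probe set hardly varied between arrays (median SD 5.31e-06), so the scale between arrays was compressed by an unknown amount and differences were not read as fold changes. Deviations are therefore divided by the SD that the probe set itself had over the 8 arrays and are called SD units. In such units no probe set can be far from 0 on many arrays, and units of different probe sets do not compare in absolute size. Levels of different probe sets were not set against each other. In whole blood, fewer cells of a type and less RNA per cell cannot be told apart.

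One array dominated the picture. On high-fat replicate 1 the Kel, Gypc and Rhag probe sets lay about 2 SD units or more above their own means, while Xk lay at its lowest value there. Of the 8 probe sets, 4 had their highest value on that array, against 10.4% of all 31042 tested probe sets. Because 4 of those values belong to only 3 genes, and transcripts of one cell type share their source, the probe sets are not independent. The members were also chosen with earlier results of these data known, so this count is not a test.

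**Figure D1:**
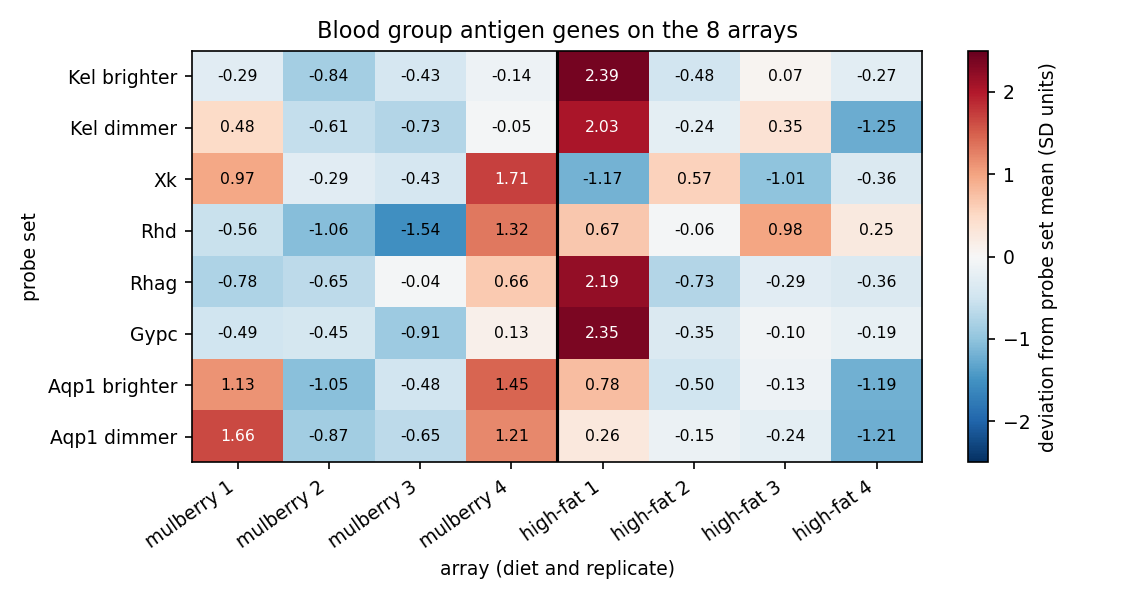
Deviation of each of the 8 probe sets (rows) from its own mean over the arrays, in SD units, on the 4 mulberry arrays (left of the line) and the 4 high-fat arrays (right of it); "brighter" and "dimmer" mark the probe sets of higher and lower mean of the same gene. Kel, Rhag and Gypc reach 2.03 to 2.39 on high-fat replicate 1, whereas Xk is at -1.17 there.

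The promoters of the 3 genes that peaked on the same array, and of Rhd, whose protein is the partner of Rhag but which did not peak there, are shown. Each window runs from 250 bases before to 50 bases after a start site taken from RefSeq (build GRCr8), on the strand of the gene. That site is the outer end of the gene's RefSeq span for Rhag, Gypc, Xk, Aqp1 and Icam4, but lies inside the span by 524 bases for Kel, 40 for Rhd and 182 for Ermap, so the Kel window is wholly within the annotated gene. Capitals mark matches on either strand to the binding words of the erythroid factor GATA1 (AGATAA with its variant AGATAG, besides TGATAA with its variant TGATAG) and to the word CACCC, bound by factors of the KLF family. The Kel window is chr4:71551724-71552023 (minus strand), that of Gypc chr18:24467543-24467842 (minus strand), that of Rhag chr9:27594341-27594640 (minus strand) and that of Rhd chr5:152370950-152371249 (plus strand).
Kel: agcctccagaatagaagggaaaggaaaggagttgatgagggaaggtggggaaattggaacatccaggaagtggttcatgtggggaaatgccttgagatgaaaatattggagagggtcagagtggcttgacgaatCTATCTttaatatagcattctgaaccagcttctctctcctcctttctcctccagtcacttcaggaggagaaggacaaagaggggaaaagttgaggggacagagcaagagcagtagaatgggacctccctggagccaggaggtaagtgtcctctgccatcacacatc
Gypc: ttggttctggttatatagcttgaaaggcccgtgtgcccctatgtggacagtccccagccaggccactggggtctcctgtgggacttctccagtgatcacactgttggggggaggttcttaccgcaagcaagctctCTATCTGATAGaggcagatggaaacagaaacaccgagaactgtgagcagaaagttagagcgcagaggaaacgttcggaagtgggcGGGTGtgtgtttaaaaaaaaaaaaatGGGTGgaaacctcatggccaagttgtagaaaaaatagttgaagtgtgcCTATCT
Rhag: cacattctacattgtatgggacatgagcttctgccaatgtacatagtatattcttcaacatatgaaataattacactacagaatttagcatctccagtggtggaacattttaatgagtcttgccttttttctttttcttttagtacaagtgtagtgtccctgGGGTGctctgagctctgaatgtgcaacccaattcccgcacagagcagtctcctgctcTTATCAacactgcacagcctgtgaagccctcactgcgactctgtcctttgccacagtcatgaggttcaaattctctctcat
Rhd: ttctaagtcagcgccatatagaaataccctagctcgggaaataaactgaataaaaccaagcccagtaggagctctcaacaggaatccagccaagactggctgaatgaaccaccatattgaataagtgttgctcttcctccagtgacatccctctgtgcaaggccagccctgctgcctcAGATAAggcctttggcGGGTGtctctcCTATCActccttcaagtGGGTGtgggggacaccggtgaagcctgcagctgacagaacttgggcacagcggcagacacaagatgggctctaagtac
A GATA word stood in 6 of the 8 windows, Xk and Aqp1 being those without one, and in 30.3% of 33469 RefSeq promoter windows of the same length. Counted from the start site of the window, it began 116 bases upstream in Kel, 31 in Rhag, 72 and 45 in Rhd, and 115 and 110 in Gypc, where another lay just downstream of that site and the upstream pair share a base. CACCC stood in 7 of the 8 windows, Kel being the exception, and in 54.9% of all windows. No GATA word overlapped a CACCC word in these windows. A match describes letters only and says nothing of whether a factor binds.

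Kel, the endopeptidase, had its widest spread in the brighter of its probe sets (1374330_at). Its deposited log2 values were 9.6348, 9.6298, 9.6336 and 9.6362 on mulberry replicates 1 to 4, and 9.6591, 9.6331, 9.6380 and 9.6350 on high-fat replicates 1 to 4. High-fat replicate 1 stood above every other array by 0.0211 log2, while the other 3 high-fat arrays lay among or next to the mulberry arrays, so the diets overlapped. The mean was 9.6336 ± 0.0028 in mulberry and 9.6413 ± 0.0121 in high-fat (SD, n = 4 each), a difference of -0.85 ± 0.64 SD units (SE). It did not pass in limma (adjusted p = 1, unadjusted p = 0.228, 95% interval from -2.37 to 0.67), and the exact permutation p was 0.229. Leaving out high-fat replicate 1 gave -0.67. The SD of this probe set ranked 23rd largest of the 31042 on the deposited scale, and 96th without that array, although the unknown compression may differ between probe sets.

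The dimmer Kel probe set (1398720_at) lay at 0.48, -0.61, -0.73 and -0.05 SD units on mulberry replicates 1 to 4, and at 2.03, -0.24, 0.35 and -1.25 on high-fat replicates 1 to 4. High-fat replicate 1 was again the highest array, but here high-fat replicate 4 was the lowest of all 8. The diets differed by -0.45 ± 0.70 SD units (SE, limma adjusted p = 1). This value turned to 0.25 when high-fat replicate 1 was left out. Over the 8 arrays the Kel probe sets correlated with Pearson r = 0.86 (exact permutation p = 0.0201) and Spearman rho = 0.57 (exact permutation p = 0.151). Adjusted over the 2 genes with 2 probe sets, these were 0.0201 and 0.151. Without the 2 arrays farthest from the median r was 0.44, so the relation rested on those arrays.

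Xk, the partner of the Kell glycoprotein, was lowest on the array where Kel was highest. Its probe set (1394570_at) lay at 0.97, -0.29, -0.43 and 1.71 SD units on mulberry replicates 1 to 4, and at -1.17, 0.57, -1.01 and -0.36 on high-fat replicates 1 to 4. Mulberry replicates 4 and 1 were the highest arrays and high-fat replicate 1 the lowest, but mulberry replicates 2 and 3 fell within the range of the high-fat arrays. The difference of 0.98 ± 0.62 SD units (SE) did not pass (limma adjusted p = 1, unadjusted p = 0.157, exact permutation p = 0.2, 95% interval from -0.49 to 2.45). Vps13a, which binds Xk, had a higher mean in mulberry by 1.02 ± 0.63 SD units (unadjusted p = 0.149 in limma). Xk had the narrowest spread of the 8 on the deposited scale, with an SD of 7.35e-06, and 38.6% of tested probe sets had a wider one. It was the only member probe set not above the median level of the tested probe sets. Quantile normalization put its difference at 0. Whether its signal lay at background was not tested.

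**Figure D2:**
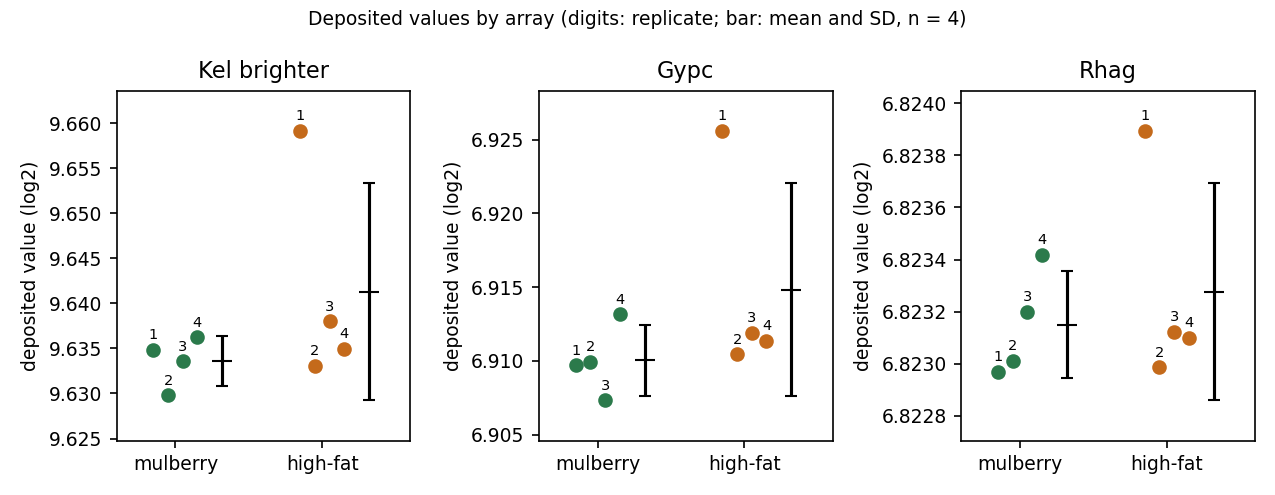
Deposited log2 values of the brighter Kel probe set, Gypc and Rhag on each array (points, numbered by replicate), with mean and SD of each diet (bars, n = 4); vertical axes differ between panels and do not start at 0. High-fat replicate 1 is the highest point in each panel, and the remaining 3 high-fat arrays lie within or beside the range of the mulberry arrays.

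Rhd, the Rh polypeptide gene, did not follow that array. Its probe set (1370079_at) lay at -0.56, -1.06, -1.54 and 1.32 SD units on mulberry replicates 1 to 4, and at 0.67, -0.06, 0.98 and 0.25 on high-fat replicates 1 to 4. Mulberry replicates 1, 2 and 3 were lower than any high-fat array, and mulberry replicate 4 was the highest of the 8. The difference was -0.92 ± 0.63 SD units (SE, limma adjusted p = 1, unadjusted p = 0.187, exact permutation p = 0.229, 95% interval from -2.41 to 0.57). Without mulberry replicate 4 it was -1.65 ± 0.36 (unadjusted p = 0.00433 in limma) and the diets no longer overlapped, but the adjusted p was 0.945. That array was the only one that made the diets overlap, so the separation follows from leaving it out and is not a test. The small unadjusted p follows in part from the same choice.

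Rhag, which assembles with Rhd in the membrane, differed from it in pattern. Its probe set (1387522_at) lay at -0.78, -0.65, -0.04 and 0.66 SD units on mulberry replicates 1 to 4, and at 2.19, -0.73, -0.29 and -0.36 on high-fat replicates 1 to 4. Only high-fat replicate 1 stood out among the high-fat arrays, and the other 3 lay inside the mulberry range. The difference of -0.41 ± 0.70 SD units (SE, limma adjusted p = 1) turned to 0.51 without that array. Cd47, a surface protein that associates with the Rh complex in human red cells, lay lower in mulberry by 0.88 in size (-0.88 ± 0.63 SD units, unadjusted p = 0.208 in limma). Rhd and Rhag correlated only moderately over the arrays (Pearson r = 0.46, exact permutation p = 0.263, Spearman rho = 0.48, exact permutation p = 0.243).

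Gypc, the membrane anchor, resembled Kel. Its deposited log2 values (1372273_at) were 6.9097, 6.9099, 6.9073 and 6.9132 on mulberry replicates 1 to 4, and 6.9256, 6.9105, 6.9119 and 6.9114 on high-fat replicates 1 to 4. High-fat replicate 1 lay 0.0124 log2 above the next array, and mulberry replicate 4 was that next array, so the diets overlapped. The difference was -0.86 ± 0.64 SD units (SE, limma adjusted p = 1, unadjusted p = 0.222, 95% interval from -2.38 to 0.66), and -0.64 without high-fat replicate 1. Without mulberry replicate 4 the diets did not overlap (-0.97, unadjusted p = 0.197 in limma), which follows from leaving out the only mulberry array among the high-fat ones. Its SD ranked 44th largest of the tested probe sets, and 123rd without high-fat replicate 1. Epb41, whose protein binds glycophorin C, lay in the other direction (1.09 ± 0.58 SD units, unadjusted p = 0.107 in limma).

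Aqp1, the water channel, was the gene whose probe sets resembled each other most closely. The brighter (1369625_at) lay at 1.13, -1.05, -0.48 and 1.45 SD units on mulberry replicates 1 to 4, and at 0.78, -0.50, -0.13 and -1.19 on high-fat replicates 1 to 4. The dimmer (1387651_at) lay at 1.66, -0.87, -0.65 and 1.21 on mulberry replicates 1 to 4, and at 0.26, -0.15, -0.24 and -1.21 on high-fat replicates 1 to 4. In both, mulberry replicates 1 and 4 were the highest arrays and high-fat replicate 4 the lowest. The probe sets correlated with Pearson r = 0.94 (exact permutation p = 0.000446) and Spearman rho = 0.90 (exact permutation p = 0.00456), which were 0.000893 and 0.00913 after adjustment over the 2 genes. Without the 2 farthest arrays r was 0.92. The diets differed by 0.52 ± 0.69 and 0.67 ± 0.67 SD units (SE, limma adjusted p = 1 for both). With single arrays left out the brighter ran from 0.15 (without mulberry replicate 4) to 0.98 (without mulberry replicate 2), and the dimmer from 0.29 (without mulberry replicate 1) to 1.06 (without mulberry replicate 2).

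No member probe set passed an adjusted p of 0.05 in limma, as was the case for all tested probe sets (0% called). None passed an unadjusted p of 0.05 either, against 4.36% of all tested probe sets, and none had diets that did not overlap, against 2.52%. The mean was higher in mulberry for 3 of the 8 (Xk and both Aqp1) and lower for 5 of the 8, against 52.7% higher among all tested probe sets. Median centring of the arrays moved this to 4 of 8 higher, and quantile normalization to 1 higher, 4 lower and 3 at exactly 0. Without high-fat replicate 1 it was 5 of 8 higher, and with the hybridization controls as a covariate 6 of 8. The intervals above span more than 1 SD unit on either side of the estimate, so these arrays could not show a difference of the size seen here, and the missed threshold does not show that the diets acted alike.

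**Figure D3:**
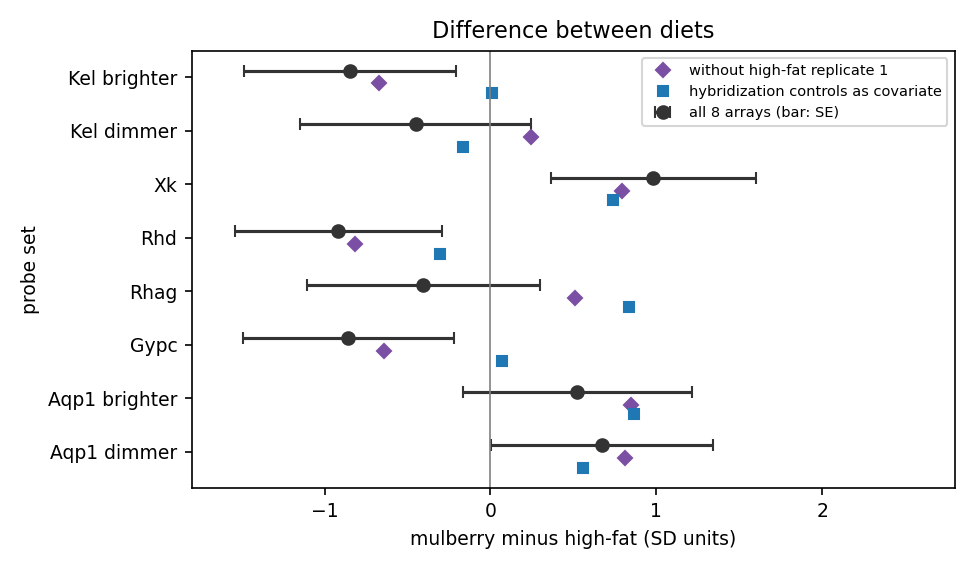
Difference between diets (mulberry minus high-fat, SD units) for each probe set with all 8 arrays (circles, bars are SE), without high-fat replicate 1 (diamonds) and after the score of the hybridization controls joined the model (squares). All bars but those of Kel dimmer, Rhag and Aqp1 brighter stay on one side of 0, and Rhag turns from -0.41 to 0.51 without that array.

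High-fat replicate 1 was also the array with the lowest score for the hybridization controls, foreign transcripts added in fixed amounts, at -1.44 SD units. Those controls scored from -0.24 to 1.30 on the mulberry arrays and from -1.44 to 0.44 on the high-fat arrays. With that score in the model the difference was 0.0087 SD units for the brighter Kel probe set, 0.069 for Gypc, 0.83 for Rhag and -0.31 for Rhd. Of 24 listed erythroid markers, none of them a member, 15 had a probe set. Their score, the mean of the markers' deviations in SD units, was 0.50 on high-fat replicate 1 and 0.57 on high-fat replicate 3. Of the 15 genes, 4 were highest on high-fat replicate 1, against 10.5% of all genes. The score of these markers ranged from -0.63 to 0.46 on the mulberry arrays and from -0.64 to 0.57 on the high-fat arrays. Their summed log2 values ran from 156.899 to 156.908 and from 156.903 to 156.915 on the same arrays. Scores of platelet, neutrophil, monocyte, T cell, B cell, NK cell and endothelial markers on that array lay between -0.38 and 0.85. With the erythroid score in the model the difference was -0.76 for the brighter Kel probe set, -0.78 for Gypc and -0.32 for Rhag. Mulberry replicate 4, the highest array for Xk, Rhd and the brighter Aqp1 probe set, had the highest platelet score, 1.67, where the scores ran from -0.49 to 1.67 on the mulberry arrays and from -1.45 to 0.19 on the high-fat arrays. All 10 measured platelet markers had a higher mean in mulberry, and all 9 NK cell markers, all 7 B cell markers and 9 of 10 monocyte markers a lower one, none past an adjusted p of 0.05 in limma. The other lists were mixed, with 7 higher and 8 lower for erythroid markers and 7 and 5 for T cells. Neutrophil markers had 6 and 3, and endothelial markers 5 and 3, against 49.1% higher over all genes. High-fat replicate 4, the lowest array for both Aqp1 probe sets and the dimmer Kel probe set, stood apart in these scores (NK cells 2.04, monocytes 1.69, platelets -1.45). Without it the difference in score was -0.39 for NK cells (-0.92 with it), -0.02 for monocytes (-0.50) and 0.35 for platelets (0.72). For B cells the difference did not shrink (-0.79 without that array, -0.65 with it). The part of platelets, monocytes and lymphocytes in the members' values was not tested.

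Members were set against the erythroid score array by array, a comparison added after the values were seen. For the brighter Aqp1 probe set Pearson r was 0.83 (exact permutation p = 0.0178) and Spearman rho 0.79 (exact permutation p = 0.0279). For the dimmer Kel probe set r was 0.77 (exact permutation p = 0.0141) and rho 0.81 (exact permutation p = 0.0218). After adjustment over the 8 probe sets none stayed under 0.05 (0.0711 for r and 0.112 for rho in both). Without the 2 arrays farthest from the median score r was 0.64 and 0.65. Xk showed no such relation (r = 0.07, exact permutation p = 0.875; rho = -0.29, exact permutation p = 0.501).

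The 6 genes give 15 pairs, of which 12 had a positive Pearson r over the 8 arrays (median 0.46), against a median of 0 over the pairs of all 14217 genes. The closest pairs were Kel with Gypc (r = 0.96, exact permutation p = 0.0137; rho = 0.79, exact permutation p = 0.0279), Kel with Rhag (r = 0.91, exact permutation p = 0.0182; rho = 0.67, exact permutation p = 0.0831) and Rhag with Gypc (r = 0.90, exact permutation p = 0.0211; rho = 0.62, exact permutation p = 0.115). None passed after adjustment over the 15 pairs (0.106 for r in each). Without the 2 arrays farthest from the median, r was 0.66, 0.35 and -0.29, so the last 2 relations rested on those arrays. Without high-fat replicate 1 these pairs had r = 0.53, 0.44 and 0.41, and Rhd with Gypc became the closest (r = 0.95, exact permutation p = 0.000595, adjusted p = 0.00893). That pair had r = 0.54 over all arrays (exact permutation p = 0.159) and rho = 0.90 (exact permutation p = 0.00456, adjusted p = 0.0685). With the diet means removed the Kel, Rhag and Gypc pairs had an adjusted permutation p from 0.016 to 0.0272. That p is only approximate, because values centred within each diet are not exchangeable over all 8 arrays. All 3 negative pairs over the 8 arrays involved Xk. Those pairs turned positive without high-fat replicate 1, with r = 0.04 for Kel (-0.45 over all arrays), 0.33 for Rhag (-0.28) and 0.33 for Gypc (-0.36).

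**Figure D4:**
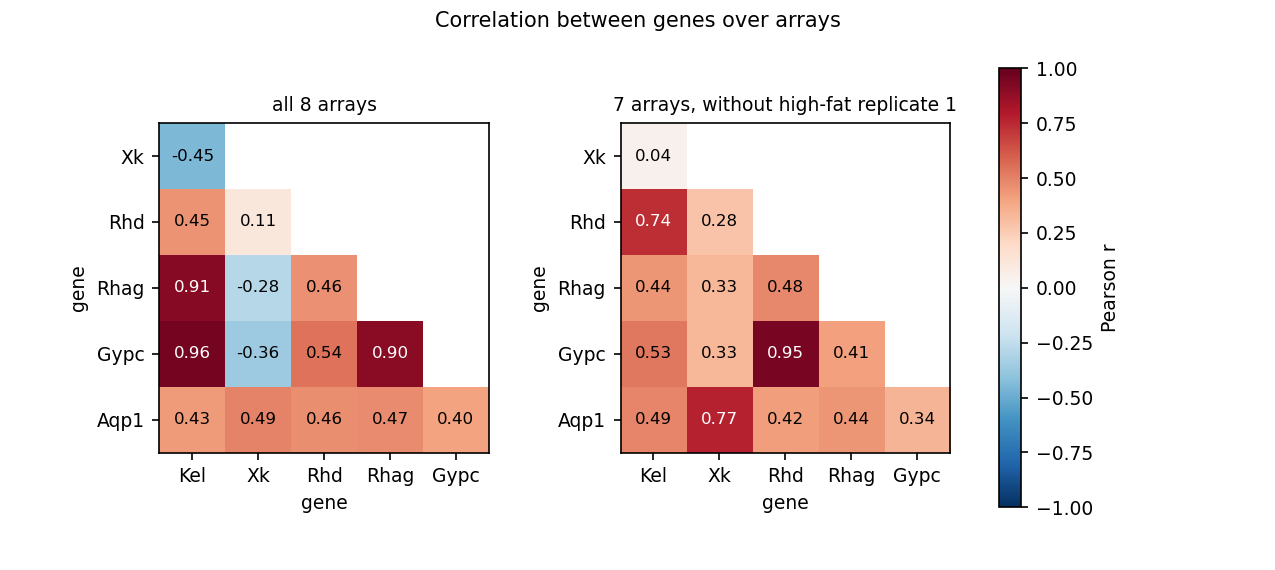
Pearson r between the 6 genes, each by its probe set of highest mean, over all 8 arrays (left) and over 7 arrays without high-fat replicate 1 (right). Kel, Rhag and Gypc form the darkest block on the left (0.90 to 0.96), and that block falls to 0.41 to 0.53 on the right.

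The genes whose pattern was most like a member were found among 1 probe set per gene, by Pearson r over the 8 arrays, as a description. Kel was closest to Cdkn2c (r = 0.99) and to Xpo7 (r = 0.98), a nuclear transport receptor gene whose transcript abounds in late erythroid cells. Xpo7 lay at 2.46 SD units on high-fat replicate 1 and between -0.61 and -0.26 on the other 7 arrays. Gypc was closest to Pmm1 (r = 0.96) and Ubap1 (r = 0.96), and Rhag to Supt4h1 (r = 0.94) and Rusf1 (r = 0.93). Without high-fat replicate 1 these became 0.80 and 0.78 for Kel, 0.61 and 0.69 for Gypc, and 0.72 and 0.89 for Rhag. Rhd was closest to Lgals3bp (0.96) and Sh3bp5l (0.94), Xk to Abhd17a (0.95) and Ppp1r3b (0.95), and Aqp1 to Agrn (0.96) and Eif3j (0.94). These were 0.94 or above without that array. All these genes were picked from the whole table for a high r over the same 8 arrays. A high r over 7 of those arrays therefore follows in part from the choice.

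Other genes of the same systems were read from 4 lists. Of 29 measured genes behind other blood group systems, 15 had a higher and 14 a lower mean in mulberry (median difference 0.0024 SD units), against 49.1% higher and a median of -0.019 over all genes. None passed an unadjusted p of 0.05 in limma, where 2.43% of all genes did so upward and 1.72% downward. The urate transporter gene Abcg2, of the human Junior system, differed by -1.09 ± 0.59 SD units, the glycerol and water channel gene Aqp3 by 1.05 ± 0.62 and the glycosyltransferase gene B3galnt1 by 1.04 ± 0.62. Slc4a1, the anion exchanger band 3 that gathers Rh proteins around it, differed by 0.33 ± 0.71. Mpp1 had no probe set naming it alone.

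Among 19 measured partners of the Rh, band 3 and junctional complexes, 10 had a higher and 9 a lower mean (median 0.26 SD units), and none passed an unadjusted p of 0.05. Add1, the gene of an adducin that caps actin filaments, differed by -1.13 ± 0.58 and Stom, the membrane protein stomatin, by 1.04 ± 0.60. Among 26 measured relatives of the members by protein family, 13 had a higher and 13 a lower mean (median 0.07), and 1 passed an unadjusted p of 0.05, upward. This was Mmel1, a neutral endopeptidase of the same family as the Kell glycoprotein, at 1.37 ± 0.51 (unadjusted p = 0.0321, limma adjusted p = 1, exact permutation p = 0.0286, and no smaller one is possible with 4 arrays a diet). Its 4 mulberry arrays lay at 0.07, 0.64, 1.97 and 0.05 SD units and its 4 high-fat arrays at -0.23, -1.14, -1.13 and -0.23, so all 4 mulberry arrays stood above all 4 high-fat ones. Mmel1 lost this call in 7 of the 15 alternatives that measured it. These were quantile normalization (difference 0), both kinds of median centring (1.24 and 1.33), the replicate block (1.37), and leaving out mulberry replicate 2 (1.32), high-fat replicate 2 (1.27) or high-fat replicate 3 (1.27). The aquaporin relatives Aqp5 and Aqp12a differed by 1.09 ± 0.60 and 1.06 ± 0.59. The lowest differences in that list, named after their values were seen, were those of the endopeptidase relative Phex (-1.33 ± 2.16) and the Xk relative Xkr5 (-1.03 ± 1.00). The last list gathered genes around the surface biology of Kell and Xk, not all of them direct partners. Among its 11 measured genes, 5 had a higher and 6 a lower mean (median -0.27), and none passed an unadjusted p of 0.05. The integrin gene Itgal differed by 1.17 ± 0.58 and the calcium pump gene Atp2b1 by -0.94 ± 0.62.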

How the data were processed

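Total RNA of whole blood was labelled from 200 ng with a 3' IVT kit and hybridised to an Affymetrix rat array, per the labels. The values deposited by the authors are log2 probe set summaries, and the summary method and any normalization were not stated in the labels or the file. Of 31099 probe sets, 57 manufacturer controls were left out. Gene names came from the platform annotation (20826 tested probe sets with 1 gene, 436 with several, not used for naming, 9780 unnamed here), updated by gene number through RefSeq for 20758. Members were matched on the annotation's symbol. In lists a gene stands by its probe set of highest mean.

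Differences between diets were tested by a two-sided fit of lmFit and eBayes without covariates (limma 3.58.1, R 4.3.3) on all 31042 probe sets, with Benjamini-Hochberg adjustment, and are printed divided by the SD over the 8 arrays. For single values all 70 assignments of arrays to diets were also enumerated in an exact permutation test (two-sided), and correlations were tested over all 40320 pairings (Python 3.11.15, numpy 2.4.6). The limma step was tested on simulated data. The number of arrays limits the precision; detection calls were not used. Members and lists were chosen with earlier results of these data known. Genes other than members are named where they bind or flank members in the membrane, have the 3 smallest unadjusted p in a list, or rank first or second in likeness to a member. Phex, Xkr5 and Epb42 fall outside these rules and were named after their values were seen. Alternatives were quantile normalization, median centring, centring in SD units, a replicate block, each array left out, control or erythroid scores as covariates, another variance model, a filter on dim probe sets and averaging over probe sets of one gene.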

Additional observations from a re-analysis of the deposited data

Results flagged for a closer look

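Within a diet of 4 arrays, an array was noted when its gap to the nearest other array took more of the diet's range than Dixon's test allows at its 95% level. Of 68 diet groups of the 34 probe sets named by the rules above, 4 were noted, and chance gives about 1 in 20. Phex, Xkr5 and Epb42, named after their values were seen, were not checked. High-fat replicate 1 was noted for Gypc (ratio 0.905), Rhag (0.850) and Xpo7 (0.995), in each case as the highest array. Xpo7 was picked for its likeness to Kel, which peaks on that array, so its value there follows from the choice. Among the 22 probe sets not picked by likeness, 3 of 44 diet groups were noted. Mulberry replicate 4 was noted for Stom (0.882), as the highest of its diet. Both Kel probe sets were highest on high-fat replicate 1 too, and neither was past the critical ratio.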

How the results depend on the processing

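The 8 member differences were refitted under 16 alternatives, 127 values in all: 118 kept their direction and stayed above an adjusted p of 0.05, 6 turned, and 3 were 0 after quantile normalization, where a probe set of equal rank on all arrays gets 1 value by construction. Adjusted p ran from 0.162 to 1, so no alternative called a member. With the hybridization controls in the model, 3 turned (brighter Kel probe set 0.0087, Gypc 0.0692, Rhag 0.834) and 6 of 8 had a higher mulberry mean. Median centring turned the dimmer Kel probe set to 0.0817. It put Xk alone past an unadjusted p of 0.05 (1.42, adjusted p = 0.162) and without overlap (1 probe set each). Listed genes past an unadjusted p of 0.05 in limma were then 6, against 1 on the deposited values. In that setting Aqp9 (unadjusted p = 0.0074) and Mmel1 (unadjusted p = 0.0585) had the same adjusted p of 0.162, so small p values were common over the whole table. The share of all probe sets past 0.05 was not computed there, so these counts are not read as changes in these genes. Quantile normalization left 1 member with a higher mean and 2 listed genes past that p, 1 of which, Epb42 (named after its values were seen), was called (adjusted p = 4.29e-15) on values that came out equal within each diet. The count was 2 when probe sets of one gene were averaged and 0 among probe sets above the median level, of which there are fewer. With each array left out in turn, the listed genes past that p ranged from 1 to 5. The members past an unadjusted p of 0.05 ranged from 0 to 1, those without overlap from 0 to 2 and those with a higher mean from 3 to 5. Shares over all probe sets were not computed for these fits, so the counts have no background here. The 2.52% without overlap holds for 4 against 4 arrays, and separation comes more easily with 3 against 4. With each array left out, the difference ranged from -1.01 to 0.246 for the dimmer Kel probe set and from -0.692 to 0.509 for Rhag. Correlated pairs, 0 on all arrays, ranged from 0 to 1 (Rhag with Gypc without mulberry replicate 3, r = 0.96, and Rhd with Gypc without high-fat replicate 1, r = 0.95). They were 3 with diet means removed, where the permutation p is only approximate. Whether array numbers shared by the diets pair the arrays was not settled. Same-numbered arrays correlated at -0.0462, -0.0505, 0.246 and 0.163 over probe sets, and 2 of the 4 mulberry arrays correlated best with their own number. No reference was set beside these values, so they cannot exclude a pairing. With the replicate block, 0 members passed, and 3 listed genes passed an unadjusted p of 0.05. The cause of these changes was not tested.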
